A study of Mus musculus with 7 samples.

Results

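Mechanosensitive channels open when a membrane is stretched, sheared or bent, and turn load on a joint into an inward flow of cations. Here 9 genes for such channels were followed in knee cartilage 2 weeks after destabilization of the medial meniscus (DMM), the surgery that unsettles the joint and induces osteoarthritis in mice. The 9 genes are Piezo1, Piezo2, Trpv4, Trpv2, Trpm7, Pkd1, Pkd2, Tmem63a and Tmem63b. They were taken by exact gene name from a table of 55401 genes, and all 9 also passed the filter on low counts, as did 16429 genes in all. PIEZO1 and PIEZO2 are large channels gated directly by force, and PIEZO2 is best known as the transducer of touch and proprioception in sensory neurons. TRPV4 and TRPV2 are calcium-permeable channels, of which TRPV4 answers osmotic change and load in chondrocytes and TRPV2 is abundant in macrophages. TRPM7 joins a channel for magnesium, zinc and calcium to a kinase. Polycystin-1 (Pkd1) and polycystin-2 (Pkd2) form a complex in the primary cilium in which polycystin-2 carries the ions, and TMEM63A and TMEM63B belong to a family of channels opened by membrane tension. TRPC1, the channel that was deleted, is a further cation channel, linked to the refilling of calcium stores.

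The samples came from the right knees of male C57BL/6J mice operated at 10 weeks of age, and the sample labels name 4 as WT and 3 as Trpc1-/-. Both genotypes had undergone DMM, so the comparison is between operated knees, and unoperated or sham-operated knees were not analysed here. The Trpc1-/- mice carry a constitutive allele without exon 8 in every tissue, and each sample pooled 2 to 3 mice, so that mice within a pool cannot be told apart. The labels name the tissue as cartilage of the femoral head and tibial plateau, the Methods add subchondral bone, and the Methods give the group sizes the other way round. Markers of chondrocytes, bone cells and marrow were all present: the summed chondrocyte markers lay between 3539 and 6493 CPM (counts scaled to a common library size), and the summed erythroid markers between 19155 and 57272 CPM. In such bulk tissue, fewer cells of a type and less RNA per cell cannot be told apart.

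Total counts per sample ranged from 52142451 to 118254070, and the 9 genes received between 691 and 24784 counts each in any sample. WT replicate 1 stood apart from the other samples before any channel was examined. It had the lowest total, the largest share of counts on the mitochondrial ribosomal RNA mt-Rnr2 (19.6%, against 12.3% to 15.4%), and 5213 CPM of neutrophil markers against 12231 to 16605 CPM elsewhere. The fitted difference of each channel gene that it moved, and the counts over each gene list, are therefore given without it as well. The deleted gene was checked first. Trpc1 (ENSMUSG00000032839) stood at 4.83, 4.55, 4.77 and 4.33 CPM in WT replicates 1 to 4 and at 3.35, 3.79 and 3.04 CPM in Trpc1-/- replicates 1 to 3. Each Trpc1-/- sample lay below each WT sample, which held in this direction for 6.42% of all tested genes. In edgeR the log2 fold change of Trpc1 was −0.44 (SE 0.13), with an adjusted P of 0.407. Since the count covers the whole gene, loss of 1 exon leaves most of it countable.

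Tested with edgeR (quasi-likelihood), none of the 9 channel genes had an adjusted P under 0.05, and none of the 16429 genes did (0%). The lowest adjusted P of any gene was 0.282. By DESeq2, which called 294 genes (1.79%), 1 channel gene, Tmem63a, was lower in Trpc1-/- cartilage with an adjusted P of 0.0456. All 9 genes had a lower fitted mean in Trpc1-/- samples than in WT samples, beside 51.9% of all tested genes, although for Trpm7 and Trpv2 the sign turned under other settings. Their median log2 fold change (logFC, Trpc1-/- minus WT) was −0.36, against −0.00881 over all tested genes. At an unadjusted P under 0.05, edgeR picked 3 of the 9 (Tmem63a, Pkd2 and Tmem63b), all lower in Trpc1-/-. The share among all tested genes was 10.0% in either direction and 5.49% for lower genes. That count of 3 fell to 1 without WT replicate 2, without Trpc1-/- replicate 1 or without Trpc1-/- replicate 3. Without WT replicate 1, 8 of the 9 had a lower mean, 3 had an unadjusted P under 0.05 (8.39% of all tested genes were lower at that level), and the median logFC was −0.20.

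**Figure D1:**
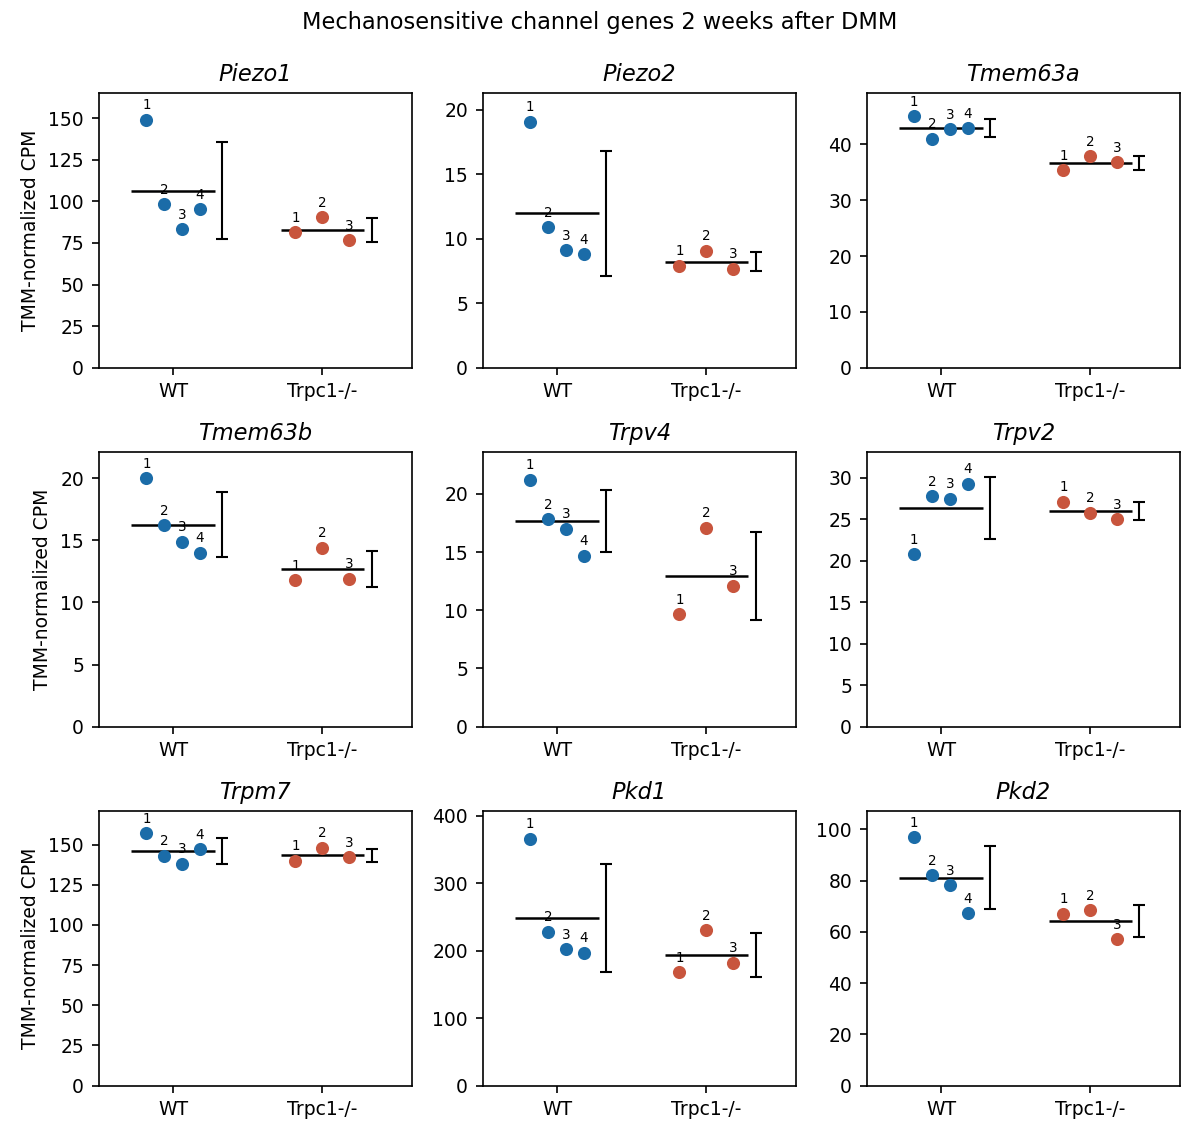
Level of each of the 9 channel genes in TMM-normalized CPM (vertical axes, each from 0) in 4 WT samples (blue) and 3 Trpc1-/- samples (red), with replicate numbers beside the points, lines at the means and bars of 1 SD. WT replicate 1 is the highest sample for 8 of the 9 genes and the lowest for Trpv2, and the groups stay apart for Tmem63a alone.

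The sequence upstream of 3 members is shown for Tmem63a and Pkd2, which had the lowest P values of the 9, and for Trpm7, whose level moved least between samples. These are RefSeq promoter windows on GRCm38.p6, cut so that no base lies beyond an annotated start in RefSeq or GENCODE M21, and capitals mark matches to the motifs named after them.
Tmem63a, chr1:180942268-180942343, plus strand: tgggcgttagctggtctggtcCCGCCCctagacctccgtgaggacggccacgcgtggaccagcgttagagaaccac
Pkd2, chr5:104459207-104459449, plus strand: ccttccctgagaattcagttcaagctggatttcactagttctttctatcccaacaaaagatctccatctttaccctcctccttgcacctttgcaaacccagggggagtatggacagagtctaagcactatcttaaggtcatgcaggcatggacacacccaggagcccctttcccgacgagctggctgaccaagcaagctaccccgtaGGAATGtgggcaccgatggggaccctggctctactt
Trpm7, chr2:126876262-126876511, minus strand: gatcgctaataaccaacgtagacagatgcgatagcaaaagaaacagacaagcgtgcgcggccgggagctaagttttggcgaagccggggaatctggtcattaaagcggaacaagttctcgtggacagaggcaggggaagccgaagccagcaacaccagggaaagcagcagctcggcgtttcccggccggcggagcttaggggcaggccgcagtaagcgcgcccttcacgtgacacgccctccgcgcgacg
Upstream windows of 250 bases were found for 8 of the 9 genes. They were searched on both strands for the GC box (letters GGGCGG), for the TEAD motif (letters CATTCC), for the cAMP response element (letters TGACGTCA), for the TATA box with letters TATAAA and for the letters CCAAT. In the Tmem63a window the capitals are a GC box, and the uncut window also held 1 CCAAT box. The capitals in Pkd2 are a TEAD motif read on the opposite strand, and the Trpm7 window held none of these motifs. Among all 32851 RefSeq windows of this length, 32.7% held a GC box, 33.8% a CCAAT box, 12.4% a TATA box, 12.6% a TEAD motif and 1.55% a cAMP response element. The window of Tmem63b had 2 GC boxes, those of Trpv4 2, Pkd1 4 and Piezo1 1, the last beside 1 TATA box. Of 3 RefSeq windows of Trpv2, 1 held a TEAD motif and the others held none of these motifs. A match is a match of letters only.

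Tmem63a (ENSMUSG00000026519, chromosome 1, 180942344 to 180975112, GRCm38) was the steadiest of the genes that differed. It stood at 45, 41, 42.7 and 42.9 CPM in WT replicates 1 to 4 and at 35.4, 37.9 and 36.8 CPM in Trpc1-/- replicates 1 to 3. Every Trpc1-/- sample lay below every WT sample, which held for none of the other 8 channel genes and, in this direction, for 6.42% of all tested genes (13.6% in either direction). WT samples averaged 42.9 ± 1.67 CPM (SD, n = 4) against 36.7 ± 1.21 CPM in Trpc1-/- samples (SD, n = 3), 14.5% lower on the fitted scale. The logFC was −0.23 (SE 0.06, 95% interval −0.37 to −0.08), with an unadjusted P of 0.008 and an adjusted P of 0.404 in edgeR. The size of this difference hardly depended on which samples were used, since logFC stayed between −0.26 and −0.20 with any 1 sample left out. The DESeq2 call was more fragile. Tmem63a was called without WT replicate 1 (adjusted P = 0.0397), in a fit that called 892 genes. It was not called when any of the other 6 samples was left out, with adjusted P from 0.111 to 0.586 in fits that called 37 (without Trpc1-/- replicate 3) to 371 genes (without Trpc1-/- replicate 2), nor in DESeq2 with the replicate block (adjusted P = 0.914).

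Tmem63b (ENSMUSG00000036026, chromosome 17), the paralog of Tmem63a, was the less abundant of the pair. WT replicates 1 to 4 had 20, 16.2, 14.9 and 14 CPM, and Trpc1-/- replicates 1 to 3 had 11.8, 14.4 and 11.9 CPM. Trpc1-/- replicate 2 lay among the WT samples, and the other Trpc1-/- samples lay below all of them. In edgeR its logFC of −0.36 (SE 0.14) had an unadjusted P of 0.0364 and an adjusted P of 0.478, and it was −0.25 without WT replicate 1. Within a sample, the log2 ratio of Tmem63a to Tmem63b counts was 1.41 ± 0.20 in WT (SD, n = 4) and 1.54 ± 0.13 in Trpc1-/- (SD, n = 3). This difference of 0.13 was within the spread between samples (exact two-sided permutation test over 35 splits, P = 0.343; smallest P that the design allows, 0.0571). Of the third family member, Tmem63c, no sample had more than 9 counts.

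Piezo1 (ENSMUSG00000014444, chromosome 8, 122481698 to 122551329) encodes a PIEZO channel described in chondrocytes, bone and vessels. The authors also name PIEZO2 among the mechanoreceptors of chondrocytes. Piezo1 levels in WT replicates 1 to 4 were 149, 98.4, 83.2 and 95.3 CPM, and in Trpc1-/- replicates 1 to 3 they were 81.3, 90.4 and 76.7 CPM. WT replicate 1 was 1.61 times the mean of the other WT samples, and Trpc1-/- replicate 2 lay inside the range of those. With all samples edgeR gave a logFC of −0.36 (SE 0.19, 95% interval −0.81 to 0.09; adjusted P = 0.544). Without WT replicate 1 it was −0.16.

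Piezo2 (ENSMUSG00000041482, chromosome 18) had the largest fitted difference of the 9 and also the widest interval. It reached 19.1 CPM in WT replicate 1, with 10.9, 9.13 and 8.79 CPM in WT replicates 2 to 4, and 7.9, 9.08 and 7.69 CPM in Trpc1-/- replicates 1 to 3. WT replicate 1 held 1.99 times the mean of the other WT samples, whereas Trpc1-/- replicate 2 lay between WT replicates 3 and 4. The logFC of −0.54 (SE 0.27, 95% interval −1.17 to 0.10) had an adjusted P of 0.533 in edgeR and became −0.23 without WT replicate 1. Scn10a, a sodium channel of the pain-sensing neurons, had 0 counts in all 7 samples (3 counts would be 0.0254 to 0.0575 CPM). Piezo1 counts were on average 9.52 times Piezo2 counts in the same sample. The log2 ratio of Piezo2 to Piezo1 was −3.19 ± 0.19 in WT (SD, n = 4) and −3.33 ± 0.03 in Trpc1-/- (SD, n = 3). The difference of −0.14 was within the spread between samples (exact two-sided permutation test, P = 0.229, 0.514 adjusted over 3 ratios).

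Trpv4 (ENSMUSG00000014158, chromosome 5, 114622152 to 114658421) was the gene in which the Trpc1-/- samples differed most among themselves. In WT replicates 1 to 4 it measured 21.2, 17.8, 17 and 14.7 CPM, and in Trpc1-/- replicates 1 to 3 it measured 9.66, 17.1 and 12.1 CPM. Trpc1-/- replicates 1 and 3 lay below every WT sample, and replicate 2 lay in the middle of the WT range. The logFC was −0.45 (SE 0.21, 95% interval −0.92 to 0.03), with an unadjusted P of 0.0626 and an adjusted P of 0.51 in edgeR. It was −0.71 without Trpc1-/- replicate 2 and −0.27 without Trpc1-/- replicate 1, and DESeq2 called the gene only when Trpc1-/- replicate 2 was left out (adjusted P = 0.027). Summed chondrocyte markers (12 genes, among them Acan, Col2a1 and Sox9) took the same order, with 3539, 6493 and 3844 CPM in Trpc1-/- replicates 1 to 3 and 6232 to 6492 CPM in WT. Col2a1 alone held 1453, 3266 and 1695 CPM of the Trpc1-/- sums. Comp (477, 464 and 357 CPM) and Prg4 (323, 385 and 388 CPM) did not peak in replicate 2, and the other markers did. As a mean of log2 CPM over the 12 genes, WT replicate 1 was the lowest WT sample (7.24, against 7.59 to 7.65). Summed osteoblast and osteocyte markers also peaked in Trpc1-/- replicate 2 (1238, 1614 and 1114 CPM). In the 12 chondrocyte markers the mean was lower in Trpc1-/- for 12, of which 4 had an unadjusted P under 0.05 (5.49% of all tested genes were lower at that level), and 8 had one without WT replicate 1 (8.39%). The part of these cells in the Trpv4 difference was not tested.

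Trpv2 (ENSMUSG00000018507, chromosome 11) followed another pattern. It had 20.8, 27.8, 27.5 and 29.3 CPM in WT replicates 1 to 4 and 27.1, 25.8 and 25 CPM in Trpc1-/- replicates 1 to 3. WT replicate 1, the highest sample for the other 8 channel genes, was the lowest for this one. The logFC of −0.02 (SE 0.12, 95% interval −0.30 to 0.25) had an adjusted P of 0.952 in edgeR, was −0.12 without WT replicate 1, and was above 0 in several other fits. Summed macrophage markers were also lowest in WT replicate 1, at 409 CPM against 572 to 592 CPM in the other WT samples, as were the neutrophil markers, and the part of these cells in the Trpv2 level was not tested. None of the 4 other TRPV genes passed the filter: Trpv1, Trpv3 and Trpv5 had at most 54 counts in any sample, and Trpv6 had 0 in all.

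Trpm7 (ENSMUSG00000027365, chromosome 2, 126791565 to 126876230) was the most even of the 9. WT replicates 1 to 4 gave 157, 143, 138 and 147 CPM, and Trpc1-/- replicates 1 to 3 gave 140, 148 and 142 CPM. The highest sample was 1.14 times the lowest, the smallest such ratio among the channel genes, and the groups overlapped throughout. Its logFC was −0.03 (SE 0.08), and the 95% interval from −0.21 to 0.16 bounds the size of a difference that these samples could hide. The sign turned without WT replicate 1 (0.0071). Among the 7 other TRPM genes, 4 were tested, none had an unadjusted P under 0.05, and their median logFC was −0.31, or −0.16 with 3 of 4 lower when WT replicate 1 was left out. Trpm2, an oxidant-gated channel of leukocytes, was the most abundant of them by CPM, with 76.1 ± 9.76 CPM in 4 WT samples and 66.3 ± 2.91 CPM in 3 Trpc1-/- samples (SD), and the others tested were Trpm3, Trpm4 and Trpm6, the close relative of Trpm7. Trpm1, Trpm5 and Trpm8 fell under the filter, Trpm8 with 0 counts.

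The polycystin genes were both abundant. Pkd1 (ENSMUSG00000032855, chromosome 17, 24549834 to 24596508) had 366, 228, 202 and 197 CPM in WT replicates 1 to 4 and 168, 230 and 182 CPM in Trpc1-/- replicates 1 to 3. WT replicate 1 was 1.75 times the mean of the other WT samples, and Trpc1-/- replicate 2 was above 3 of the 4 WT samples. The fitted difference in edgeR, a logFC of −0.36 (SE 0.24, 95% interval −0.92 to 0.19; adjusted P = 0.603), shrank to −0.11 without WT replicate 1. Pkd2 (ENSMUSG00000034462, chromosome 5, 104459450 to 104505819) had 97.1, 82.2, 78.2 and 67.3 CPM in WT replicates 1 to 4 and 67.2, 68.5 and 57.2 CPM in Trpc1-/- replicates 1 to 3. Only WT replicate 4 and Trpc1-/- replicate 2 were out of order between the groups. Pkd2 had a logFC of −0.34 (SE 0.13, 95% interval −0.65 to −0.03), an unadjusted P of 0.0362 and an adjusted P of 0.478 in edgeR, and −0.24 without WT replicate 1. The log2 ratio of Pkd1 to Pkd2 counts was 1.57 ± 0.24 in WT (SD, n = 4) and 1.58 ± 0.23 in Trpc1-/- (SD, n = 3; exact two-sided permutation test, P = 1). Of 7 other genes of the family, Pkd1l1, Pkd1l3 and Pkd2l2 were tested, of which 2 had a lower mean and none an unadjusted P under 0.05. Without WT replicate 1, 0 of the 3 had a lower mean and 1, Pkd2l2, had an unadjusted P under 0.05, with a higher mean in Trpc1-/-. Pkd1l2, Pkd2l1, Pkdrej and Pkhd1 fell under the filter.

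**Figure D2:**
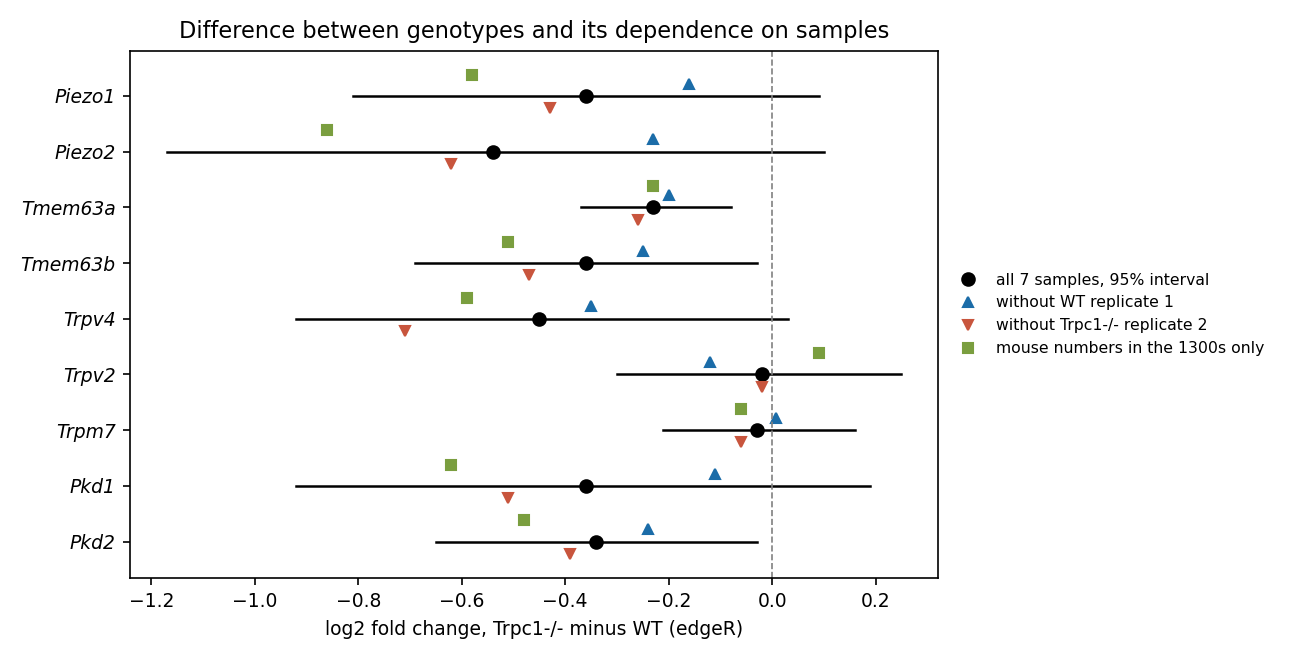
Difference between genotypes for each channel gene as logFC (horizontal axis, Trpc1-/- minus WT, edgeR) from all 7 samples with its 95% interval (black), without WT replicate 1 (blue), without Trpc1-/- replicate 2 (red) and in samples with mouse numbers in the 1300s only (green). Piezo1, Piezo2 and Pkd1 come closer to 0 without WT replicate 1, Tmem63a stays near −0.23, and Trpm7 and Trpv2 stay near 0.

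The library names carry mouse numbers in the 1300s for WT replicates 1 and 2 and all Trpc1-/- samples, and in the 1700s for WT replicates 3 and 4. Among the 1300s alone, which compare 2 WT with 3 Trpc1-/- samples, logFC was −0.58 for Piezo1, −0.86 for Piezo2, −0.62 for Pkd1, −0.59 for Trpv4, −0.51 for Tmem63b and −0.48 for Pkd2. Tmem63a kept −0.23, Trpm7 had −0.06, and Trpv2 had 0.09. There 6 of the 9 had an unadjusted P under 0.05, where 8.38% of all tested genes were lower at that level, and none had an adjusted P under 0.05. With the number series as a covariate, 7 of the 9 had an unadjusted P under 0.05 (10.3% of all tested genes were lower at that level), and with scaling by library totals alone 6 had one (8.30%). No channel gene had an adjusted P under 0.05 in either fit. The 1700s hold WT samples only, so the covariate fit also takes its genotype difference from the 1300s, and the logFC values were the same. It is therefore not a separate comparison from the 1300s alone. One of the 2 WT samples in the 1300s is replicate 1, so that sample carries more weight in both fits.

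The genes were ranked per length of exon, with exons merged over all annotated transcripts of a gene, and the order depends on this choice of length. Pkd1 and Trpm7 came first, at means over 7 samples of 12.9 and 12.8 CPM per kb. Their order is not settled, since Pkd1 was the higher in 3 of the 7 samples. Piezo1 followed at 9.69, Tmem63a at 8.96 and Pkd2 at 7.27 CPM per kb. Trpm7 was above Piezo1 in 6 samples and Piezo1 above Tmem63a in 5, while Tmem63a was above Pkd2 in 7. Trpv2 (5.84 CPM per kb), Trpv4 (3.84) and Tmem63b (2.89) came next, each above the following gene in at least 6 of 7 samples. Piezo2 closed the list at 0.604 CPM per kb, with Tmem63b 4.95 times as high. Trpc1 itself had 0.51 CPM per kb and was below Piezo2 in 5 samples. Piezo1 stood per length 16.5 times as high as Piezo2 (9.52 times in counts), and Tmem63a 3.13 times as high as Tmem63b (2.76 times in counts). Some exons overlap genes on the opposite strand, namely Piezo1 with Ctu2 over 2441 bases, Pkd1 with Tsc2 over 693 bases and Tmem63b with Mrpl14 over 106 bases, and the libraries and the alignment were stranded.

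**Figure D3:**
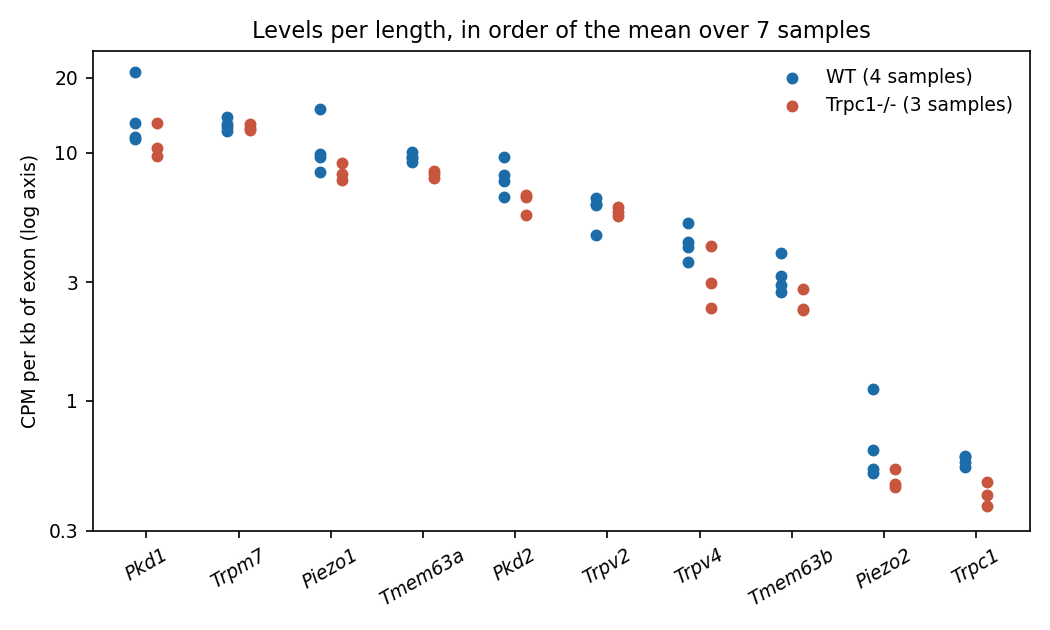
Level per length of the 9 channel genes and Trpc1 in CPM per kb of exon (vertical log axis), with 1 point per sample (WT blue, Trpc1-/- red) and genes in the order of their mean over 7 samples. Pkd1 and Trpm7 head the order near 12.9 CPM per kb, and Piezo2 and Trpc1 lie at or below 1.11 in every sample.

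The 9 genes did not vary as a block. In WT replicate 1 the log2 ratio to the WT mean was 0.67 for Piezo2, 0.56 for Pkd1 and 0.48 for Piezo1, but 0.10 for Trpm7, 0.07 for Tmem63a and −0.34 for Trpv2. In Trpc1-/- replicate 2 it was −0.11 for Pkd1 and −0.05 for Trpv4, and in Trpc1-/- replicate 1 it was −0.56 and −0.87 for the same genes. As a description of likeness, the tested genes with the highest Pearson r of log2 CPM over the 7 samples were Zfp462, Zcchc14 and Agrn for Piezo1 (0.997 to 0.999), Lmbr1, Ahnak2 and Fut11 for Piezo2 (0.996 to 0.998), and Adgrl1, Ttc19 and 2210408I21Rik for Pkd1 (0.995 to 0.996). Aplnr, Socs2 and Ptprk were most like Trpv4 (0.989 to 0.994), Smad5, Npr2 and Slc12a4 most like Tmem63b (0.996 to 0.999), and Zscan18, Dixdc1 and Kifc3 most like Pkd2 (0.992 to 0.993). Tmem63a was most like Nlrp5-ps, Osbpl3 and Ssh3 (0.974 to 0.995), Trpv2 most like Atp2c1, Flna and 4933424M12Rik (0.991 to 0.996), and Trpm7 most like Gm37906, Gm45140 and Kcnq1ot1 (0.995 to 0.998). These are the best of 16429 genes over 7 samples that share depth and tissue composition, so high values carry no test.

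**Figure D4:**
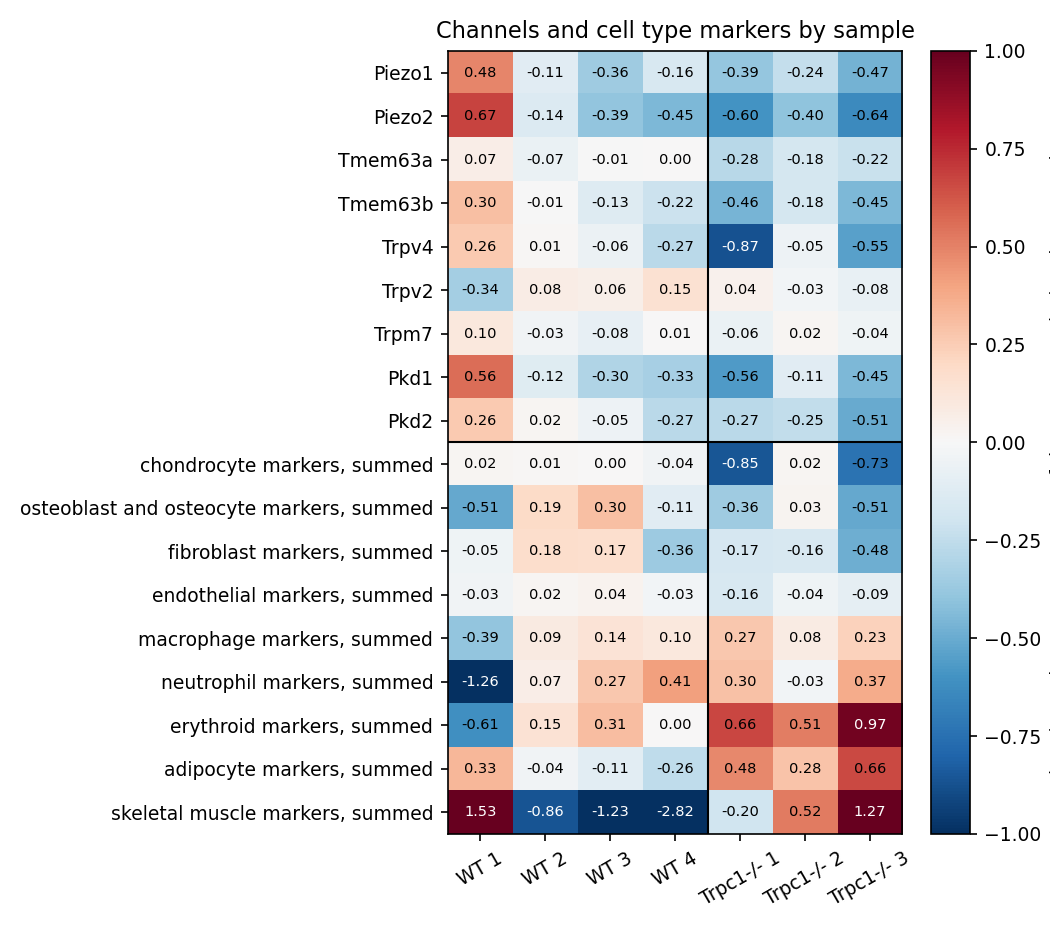
Log2 ratio of each sample (columns) to the mean of the 4 WT samples for the 9 channel genes (upper rows, CPM) and for summed cell type markers (lower rows, CPM), with color capped at 1 and the value printed in each cell. WT replicate 1 is red for most channels and blue for neutrophil markers (−1.26), and chondrocyte markers are −0.85 and −0.73 in Trpc1-/- replicates 1 and 3 but 0.02 in replicate 2.

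Markers of other cells were measured beside the channels, and with all samples edgeR called none of them. Among all tested genes, 10.0% had an unadjusted P under 0.05 in either direction, and 5.49% were lower at that level. Without WT replicate 1, 8.39% were lower at that level. Erythroid markers, summed, lay between 19155 and 36234 CPM in WT and between 41873 and 57272 CPM in Trpc1-/-, with 10 of 10 higher and 9 at an unadjusted P under 0.05 (10 without WT replicate 1). Skeletal muscle markers had 1138 CPM in WT replicate 1, 55.9 to 217 CPM in the other WT samples and 344 to 954 CPM in Trpc1-/-. Their median logFC was 0.70 with 0 of 6 at an unadjusted P under 0.05, and without WT replicate 1 it was 2.09 with 5 of 6. Adipocyte markers were higher in 5 of 5, with 121 to 182 CPM in WT and 176 to 228 CPM in Trpc1-/-, and with 3 at an unadjusted P under 0.05 (4 without WT replicate 1). Osteoblast and osteocyte markers had lower means in 9 of 9, with overlapping sums of 1111 to 1953 CPM in WT and 1114 to 1614 CPM in Trpc1-/-. Of these 9, 2 had an unadjusted P under 0.05, and without WT replicate 1 the number was 5. In that fit edgeR called 2 of the 9, and 52 of all 16242 tested genes. Fibroblast markers (6 of 6 lower) and endothelial markers (5 of 6 lower) had 1 gene each at an unadjusted P under 0.05, and without WT replicate 1 they had 3 and 2. The B cell list (6 of 6 higher) and the osteoclast list (4 of 6 lower) had none at that level with all samples, and 3 and 0 without WT replicate 1. Neutrophil markers had higher means in 7 of 7, and in 3 of 7 without that sample, and macrophage markers in 6 of 6 and 4 of 6. The part of these cells in the channel differences was not tested.

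Around the channels, genes of the YAP and TAZ pathway were examined first. YAP1 and TAZ (Wwtr1) are coactivators that enter the nucleus under tension and bind TEAD factors, and Ccn1 and Ccn2 are matrix proteins they induce. Of 15 genes 14 were tested, 13 had a lower mean in Trpc1-/- (51.9% of all tested genes), and 6 had an unadjusted P under 0.05, all lower (5.49% of all tested genes). The median logFC of the list was −0.33, and without WT replicate 1 it was −0.19, with 10 of 13 tested genes lower and 5 at an unadjusted P under 0.05 and lower (8.39% of all tested genes). Ccn1 had 40.3, 34.3, 31.2 and 28.9 CPM in WT and 23.8, 24.2 and 18.2 CPM in Trpc1-/-. The groups of Ccn1 did not overlap (6.42% of all tested genes in this direction). For a logFC of −0.61 (SE 0.15) the adjusted P was 0.395 by edgeR and 0.0227 by DESeq2. For Ccn2, Wwtr1 and Tead3 logFC was −0.42 (SE 0.13), −0.37 (SE 0.10) and −0.72 (SE 0.25), without an adjusted P under 0.05 in either test. The target Ankrd1 fell under the filter.

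A list of further channel genes, gated by force, by volume or by other stimuli, held 15 genes, of which 6 were tested. Of these, 5 had a lower mean in Trpc1-/-, and Tmem120a was even, at 9.21 CPM in WT and 9.22 CPM in Trpc1-/-. The median logFC was −0.25 (−0.20 without WT replicate 1). With and without that sample, 2 genes had an unadjusted P under 0.05 and were lower (5.49% and 8.39% of all tested genes). P2rx7, an ATP-gated channel of immune and bone cells, measured 18.2, 17.8, 16.3 and 17.6 CPM in WT and 14.4, 14.2 and 13.2 CPM in Trpc1-/-. Its groups did not overlap (6.42% of all tested genes in this direction). The logFC of P2rx7, −0.33 (SE 0.07), had an adjusted P of 0.395 in edgeR and 0.0181 in DESeq2. Kcnk2, the stretch-activated potassium channel TREK-1, had a logFC of −0.41 (SE 0.13) and likewise no overlap, but an adjusted P of 0.428 in edgeR and 0.135 in DESeq2. Kcnma1, the large-conductance calcium-activated potassium channel, and Lrrc8a, the essential subunit of the volume-regulated anion channel, overlapped between groups. Tmem63c, Kcnk4, Kcnk10, Tmc1, Tmc2, Asic1, Asic2, Asic3 and Trpa1 fell under the filter.

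Proteins that bind PIEZO channels or alter their gating gave 7 tested genes of 9, with 5 lower, 2 higher and a median logFC of −0.07 (4 lower and a median of 0.00 without WT replicate 1). Mdfi, of the MyoD family inhibitors that bind PIEZO channels, was the only one at an unadjusted P under 0.05, with 8.33, 7.8, 9.22 and 8.98 CPM in WT and 5.94, 7.26 and 5.82 CPM in Trpc1-/-. Of all tested genes, 5.49% were lower at that level. The Mdfi groups did not overlap (6.42% of all tested genes in this direction), and the logFC of Mdfi was −0.44 (SE 0.12, edgeR adjusted P = 0.395). Its paralog Mdfic had a logFC of −0.07 (SE 0.09), while Stom and Cdh1 had values above 0 at 0.27 (SE 0.15) and 0.31 (SE 0.18). Tmem150c and Stoml3 fell under the filter.

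In the primary cilium list, which houses the polycystins, 14 genes were tested, 11 lower and 3 higher, with a median logFC of −0.17. At an unadjusted P under 0.05 there was 1 gene in each direction, beside 10.0% of all tested genes in either direction. Without WT replicate 1 the median was −0.14, with 4 lower and 2 higher at that level (8.39% of all tested genes were lower). Ift140, of the transport complex that returns cargo from the cilium, was higher in every Trpc1-/- sample (121, 97.6 and 110 CPM) than in every WT sample (80.9, 89.9, 91.3 and 87.8 CPM), with a logFC of 0.32 (SE 0.09, edgeR adjusted P = 0.407). Evc2, which relays Hedgehog signals at the cilium base, had a logFC of −0.46 (SE 0.19), and the trafficking gene Tulp3 had −0.56 (SE 0.24). Arl13b, a ciliary GTPase, did not overlap between groups and had −0.18 (SE 0.08). Bbs2 (−0.20, SE 0.10) and Bbs4 (−0.15, SE 0.10) did not overlap either and were lower. Of all tested genes, 6.42% lay apart in this direction and 13.6% in either direction. Ick was not analysed here.

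Genes for ATP release, ATP receptors and gap junctions showed no lean, with 3 of 7 lower, 0 at an unadjusted P under 0.05 in edgeR, 0 called by DESeq2 and a median logFC of 0.01 (−0.06 with 4 of 7 lower without WT replicate 1). Gja1, connexin 43, had 104, 146 and 103 CPM in Trpc1-/- and 152, 153, 142 and 126 CPM in WT, so Trpc1-/- replicate 2 again lay within the WT range. Among 14 calcium-responsive early genes, 13 had a lower mean (51.9% of all tested genes) and 2 an unadjusted P under 0.05 (10.0% of all tested genes). With all samples the 2 were Dusp1, a phosphatase that quenches MAP kinases (logFC −0.44, SE 0.14), and the transcription factor Egr3 (−0.53, SE 0.22). Their adjusted P was 0.41 and 0.486 in edgeR. The median logFC of the list was −0.28, and −0.11 without WT replicate 1. In that fit 13 were again lower and 2, not named here, were lower at an unadjusted P under 0.05 (8.39% of all tested genes). The pericellular and force-bearing matrix list had 10 of 10 lower (51.9% of all tested genes) and a median logFC of −0.39. Only 1 of the 10, the basement membrane gene Nid2, had an unadjusted P under 0.05 (5.49% of all tested genes were lower at that level). Without WT replicate 1, 8 of 10 were lower, with a median of −0.27 and 1 gene lower at that level (8.39% of all tested genes). Nid2 measured 24, 25.2, 25.4 and 25.3 CPM in WT and 15.7, 24.7 and 16.1 CPM in Trpc1-/-, where replicate 2 was close to WT. Fn1 and Col6a3, which tie cells to the matrix, had a logFC of −0.39 (SE 0.17) and −0.45 (SE 0.23).

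**Figure D5:**
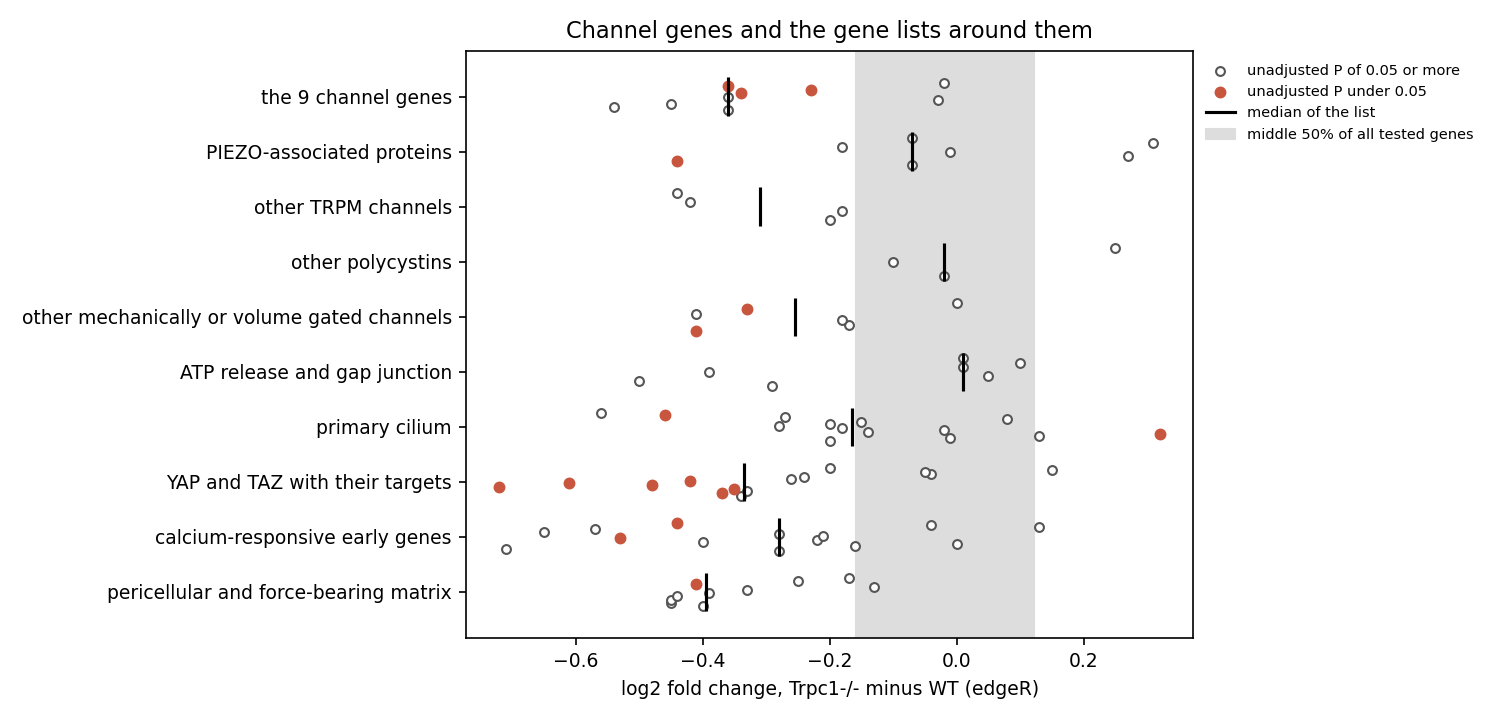
Log2 fold change of each tested gene (horizontal axis, Trpc1-/- minus WT, edgeR) in the channel genes and the lists around them (rows), with filled red points for an unadjusted P under 0.05, open points for the others, a black line at each median and a grey band over the middle 50% of all tested genes (−0.159 to 0.122). The medians of the channel genes (−0.36), the YAP and TAZ list (−0.33) and the matrix list (−0.39) lie left of the band, and that of the ATP release list (0.01) lies inside it.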

How the data were processed

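RNA-Seq was performed on 7 samples (4 WT, 3 Trpc1-/-). The authors trimmed reads with Cutadapt 2.5, aligned them to GRCm38 with HISAT2 2.1.0, estimated transcript coverage with StringTie 2.0.3, and deposited estimated counts per gene, which were whole numbers and not normalized. The annotation version was not given in the sources used here, and 55141 of 55401 genes matched GENCODE M21, which supplied positions and exon lengths.

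Genes above 1 CPM in at least 2 samples were kept, TMM-normalized and tested for genotype with edgeR 4.0.16 in R 4.3.3 (quasi-likelihood test, two-sided, Benjamini-Hochberg adjustment over 16429 genes, threshold 0.05). DESeq2 1.42.0 and limma-voom 3.58.1 were alternatives, beside other normalizations, filters, sample sets and covariates. The common dispersion was 0.0424, and 3 counts equalled 0.0254 to 0.0575 CPM. Ratios were tested by exact permutation with SciPy 1.17.1. The test scripts were tested on simulated data. No samples were identical. Replicates are pools of mice, so P values measure the spread between pools.

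The 9 genes, the lists, the markers and the tests were chosen with earlier results of these data known. In each list, up to 4 genes with the smallest P and those under the filter were named. Some genes covered by this rule are not reported here.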

Additional observations from a re-analysis of the deposited data

Results flagged for a closer look

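Among 60 levels of channels, listed genes and summed markers in the 4 WT samples, 5 had 1 sample far from the others by Dixon's test, which by chance flags about 1 in 20 (the 95% level). All 5 concerned WT replicate 1. It was the lowest for summed macrophage markers (409 CPM, nearest other WT sample 572 CPM) and for Nid2 (24 CPM, nearest 25.2 CPM). It was the highest for summed skeletal muscle markers (1138 CPM, nearest 217 CPM), Kcnma1 (59.5 CPM, nearest 34.9 CPM) and Tulp3 (12.3 CPM, nearest 7.24 CPM). None of the 9 channel genes was set apart in this way.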

How the results depend on the processing

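No gene was called by edgeR with all samples, against 294 by DESeq2, 1 by limma-voom, 53 by DESeq2 with the replicate block and 0 to 52 with 1 sample left out, the 52 without WT replicate 1; the cause was not tested. Of the 9 channel genes DESeq2 called 1. The number at an unadjusted P under 0.05 (3) became 6 with library totals alone, 7 with the mouse number series as covariate, 6 in the 1300s alone and 1 to 4 with 1 sample left out. The covariate fit and the 1300s alone take the genotype difference from the same samples. Trpm7 turned to a logFC of 0.0037 with no filter, and ranged from −0.06 to 0.0071 with 1 sample left out. Trpv2 turned to 0.002 with no filter, 0.04 with the replicate block (0.05 in DESeq2) and 0.09 with the number series or in the 1300s alone, and ranged from −0.12 to 0.03 with 1 sample left out. The log2 ratio of Pkd1 to Pkd2 (0.0046) was −0.11 in the 1300s alone, −0.0049 with the replicate block and −0.08 to 0.13 with 1 sample left out. The other 7 genes kept their direction in all 18 alternatives. Same-numbered samples did not deviate together (correlations −0.452, −0.341 and −0.00439), so the numbers were not taken as pairs. With 4 and 3 pooled samples, differences of the size seen in WT replicate 1 limit precision more than counting does, since 691 counts, the lowest of any channel gene, carry a counting error of 3.8%.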

Other observations

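Asic3, Tmc1 and Trpv1, channels that fell under the filter, differed in CPM between the groups without overlap. Among the genes that passed the filter, 13.6% did so in either direction, and the share among genes under it was not computed. Asic3, an acid-sensing sodium channel of sensory neurons, was counted 66, 53, 62 and 51 times in the WT samples and 21, 21 and 16 times in the Trpc1-/- samples, in replicate order. In an edgeR fit with no filter over 35522 genes its logFC was −1.94 (SE 0.40, unadjusted P = 0.00102, adjusted P = 0.689), and 0 genes were called. Tmc1, the pore of the hair cell transduction channel, was counted 42, 87, 75 and 75 times in WT and 54, 38 and 41 times in Trpc1-/-. Scaled to CPM this was 0.611 to 0.954 in WT and 0.409 to 0.441 in Trpc1-/-, with a logFC of −0.91 (SE 0.23, adjusted P = 0.735 in the same fit). Trpv1, the capsaicin receptor, went the other way, at 0.127 to 0.284 CPM in WT and 0.323 to 0.389 CPM in Trpc1-/-, with a logFC of 0.79 (SE 0.32, adjusted P = 0.735). These genes were singled out after their values were seen.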
